A study of Mus musculus with 6 samples.

Results

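Myc and its paralogue Mycn encode transcription factors that act as dimers with Max and are described here with Max itself and the repressors that compete for it, in c-Kit+ spleen cells of 6 leukaemic or myeloproliferative mice. The 9 genes, Myc, Mycn, Max, Mxd1, Mxi1, Mxd3, Mxd4, Mnt and Mga, were taken by symbol from a table of 24054 genes in TPM (transcript abundance, scaled to transcript length and with the same sum in every library). They were chosen by their place in the network with their TPM in the 2 groups of mice, AML and MPN, already known, so that difference is given as a description, with no p-value.

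RNA-seq profiles had been made from 3 mice in a group named AML (acute myeloid leukaemia) and 3 in a group named MPN (myeloproliferative neoplasm), 1 library per mouse. All 6 mice were Flt3ITD/ITD, with an internal tandem duplication in both copies of the receptor tyrosine kinase gene Flt3. The AML mice were Dnmt3afl/- with MxCre, that is, 1 floxed and 1 null allele of the DNA methyltransferase gene Dnmt3a and a Cre recombinase driven by Mx, an interferon-responsive promoter that is not restricted to blood cells. The MPN mice, the controls, were Dnmt3afl/fl and their labels name no Cre. The AML mice were moribund when their spleens were taken, per the protocol. Ages and the loss of the floxed allele are not in the labels. Because genotype, Cre and disease differ together, their parts cannot be told apart. Spleen cells had been collected on magnetic beads against c-Kit (CD117), a receptor of blood stem and progenitor cells.

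In this network Max is the shared partner: it dimerises with Myc, Mycn or Mycl to activate genes at E-box sequences, and with the Mxd proteins (Mxd1, Mxi1, Mxd3, Mxd4), Mnt or Mga to repress them. Myc proteins are short-lived and drive ribosome production, metabolism and cell cycle entry. Mxd1 is known for rising as myeloid cells mature, whereas Myc is high in dividing progenitors and Mycn is active in stem cells and in many embryonic tissues.

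Relative sequencing depth, read from the steps between low values in a second deposited table, ranged from 0.749 to 1.31 around a geometric mean of 1, and 11780 to 12034 genes reached 1 TPM per library. Kit lay between 99.2 and 152 TPM in all 6 libraries, with every AML mouse below every MPN mouse. Dnmt3a in AML stood at 39.3% of its MPN mean. Two-sided limma tests on log2(TPM + 1) over 12223 genes called 3678 at a Benjamini-Hochberg adjusted p under 0.05, against 2277, 2009 and 2280 without MPN replicate 1, 2 or 3. MPN replicate 1 came from another sequencing run than the other 5 libraries, and the 2 female mice were both in the AML group. A term for the sex of the mouse left 1208 calls. In bulk RNA, a change in the share of a cell type and a change in RNA per cell cannot be told apart.

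In the AML mice both activators rose: Mycn, the lowest of the 9 genes in MPN, became the third most abundant transcript of the 9, and Myc became the most abundant. Max, the partner of all the others, was at about the same level in both groups. Among the repressors, Mxd1 fell to below its level in any MPN mouse, while Mxi1, Mxd3, Mxd4, Mnt and Mga did not pass the test. All 9 genes passed the filter on low values. Of these 9, 3 were called, or 33.3%, against 30.1% of all tested genes, so nothing is read from the count. The groups did not overlap for 6 of the 9, against 50.9% of all tested genes, with 4 higher in AML (34.8% of all tested genes) and 2 lower (16.1%). The median difference of the 9 on the log2(TPM + 1) scale was 0.13, the same as the 0.13 of all tested genes.

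**Figure D1:**
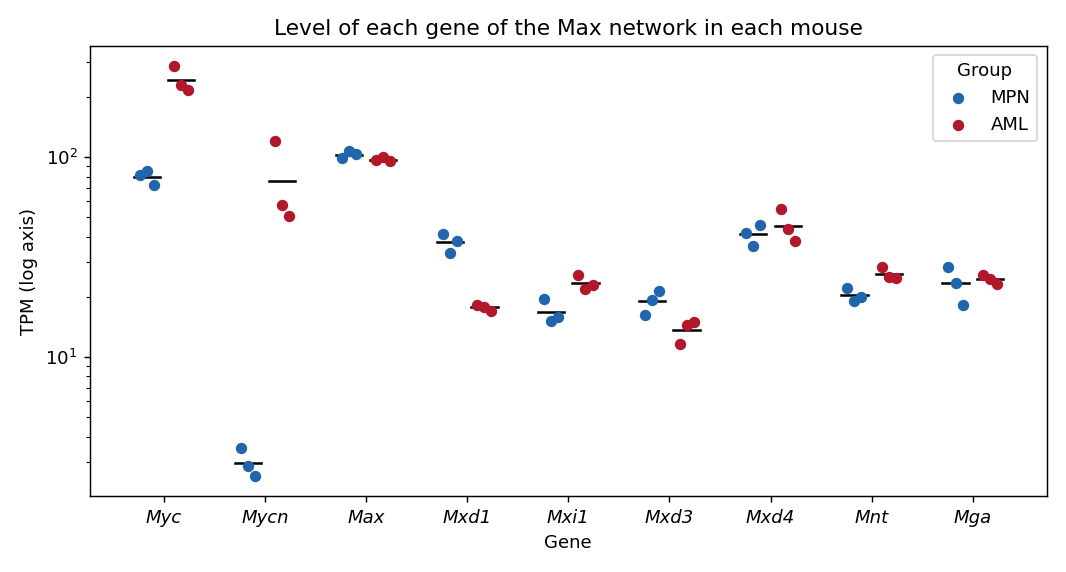
TPM of each gene, on a log axis, in the 3 MPN mice (blue) and the 3 AML mice (red), with the group mean as a black bar. Mycn moves from 2.55 to 3.51 TPM in MPN to 50.9 to 120 TPM in AML, while Max stays between 95.5 and 107 TPM in every mouse.

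Myc (ENSMUSG00000022346, GRCm38 chr15:61985391-61990374, plus strand), which drives growth and proliferation programmes, stood at 284, 230 and 215 TPM in AML replicates 1 to 3 and at 81.8, 84.9 and 72.8 TPM in MPN replicates 1 to 3. Every AML mouse was above every MPN mouse, and AML replicate 1 was the highest. The means were 243 ± 36.3 and 79.8 ± 6.29 TPM (SD, n = 3 each), a ratio of 3.05, and the difference on the log2(TPM + 1) scale was 1.59 ± 0.13 (SE). In the separate RPKM table (read counts per gene length and per library depth) the ratio was 3.08. Against all tested genes, the mean Myc level went from percentile 84.2 in MPN to percentile 95.5 in AML.

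Mycn (ENSMUSG00000037169, chr12:12936093-12941914, minus strand) stood at 120, 57.3 and 50.9 TPM in AML replicates 1 to 3 and at 3.51, 2.85 and 2.55 TPM in MPN. No MPN mouse came near the lowest AML mouse. The means were 76.1 ± 38.3 and 2.97 ± 0.491 TPM (SD, n = 3 each), a ratio of 25.6, and the log2(TPM + 1) difference was 4.18 ± 0.32 (SE). This scale understates the change of a gene so low in MPN: with a pseudocount of 0.1 the difference was 4.54. The RPKM ratio was 26.7. The mean level of Mycn lay at percentile 12.6 of the tested genes in MPN and at percentile 82.2 in AML.

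The AML mice were less alike in Mycn than in the other 8 genes. The highest AML mouse exceeded the lowest 2.36 times for Mycn, against 1.32 times for Myc and at most 1.45 times for the rest. AML replicate 1 was the highest of the 3 in both activators. Of 7 stem and progenitor markers, Gata2, Meis1, Mecom and Erg were also highest in AML replicate 1 (Mecom 16.1, 6.35 and 8.19 TPM in AML replicates 1 to 3), whereas Myb, Cd34 and Kit were highest in AML replicate 2 (Myb 274, 311 and 179 TPM). Of these markers, 6 rose with the activators (85.7%, against 20.1% of all tested genes). The summed level was 684 to 976 TPM in AML and 279 to 361 TPM in MPN. Mecom passed the filter on low values only through the AML mice. Kit, on which the cells were collected, went the other way without passing (-0.31 ± 0.13 SE). It was at 99.2, 130 and 129 TPM in AML and 145, 145 and 152 TPM in MPN, with no overlap. The part of these markers in the rise of Myc and Mycn was not tested.

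The stretch before the Mycn start is shown because it is the only member promoter in which matches to TTTNNCGC, the core letters bound by E2F cell cycle factors, were found. It is a RefSeq sequence on GRCm38.p6, chr12:12941952-12942054, minus strand, written 5′ to 3′ with the matches in capitals, the first at position -183 from the start.
Mycn: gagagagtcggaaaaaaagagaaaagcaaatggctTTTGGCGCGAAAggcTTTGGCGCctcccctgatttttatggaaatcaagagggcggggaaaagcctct
The window of 300 bases, 250 before and 50 after the start, held 3 matches on both strands, of which 2 overlap in the first run of capitals. Over all 32851 promoters in the table, 5.17% held at least 1 match. No member promoter matched TTCNNNGAA, the letters of a STAT site, which 8.30% of all promoters held. A match describes letters and not binding. Of the 9 genes, 8 had an entry, and Myc had none.

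Of the genes beside Mycn on chromosome 12, the RNA helicase gene Ddx1 (chr12:13216973-13249213, minus strand), 275 kb away, rose from 54.3 ± 12.0 to 98.7 ± 16.5 TPM (SD, n = 3 each; log2 difference 0.86 ± 0.20 SE, limma adjusted p = 0.0171). That call ended with a term for the sex of the mouse (0.61, adjusted p = 0.213). Nbas, a gene of vesicle transport 327 kb from Mycn, averaged 8.44 ± 1.59 TPM in the AML mice and 10.7 ± 1.85 TPM in the MPN mice, and did not pass (adjusted p = 0.257). Both differences were smaller than that of Mycn. Beside Myc, the long non-coding RNA gene Pvt1 (chr15:62037986-62378096), 47.6 kb away, was at 4.56, 4.0 and 4.1 TPM in AML and 4.01, 4.3 and 3.2 TPM in MPN, with overlapping groups (adjusted p = 0.623).

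Mycl, the third Myc paralogue, is not among the 9 genes but shares their partner Max. It stood at 22.4, 54.4 and 99.9 TPM in AML and 126, 145 and 128 TPM in MPN. Every AML mouse was below every MPN mouse, but the AML mice spread so widely that Mycl did not pass (log2 difference -1.40 ± 0.46 SE, limma adjusted p = 0.0561). Mycl passed when the libraries were weighted (-1.24, limma adjusted p = 0.00674). That weighting put MPN replicate 2 at 8.59 and the other libraries at 0.247 to 1.38. Mycl also passed when AML replicate 1 was left out (-0.84, limma adjusted p = 0.0433) and when AML replicate 3 was (-1.89, limma adjusted p = 0.0072). A term for sex reduced the difference to -0.41 (limma adjusted p = 0.61). Mycl is known as a dendritic cell factor. Of 9 dendritic cell markers, 6 fell and 3 did not pass (10% of all tested genes fell), and no marker was at 0 in any library. Their summed level was 70.6, 369 and 481 TPM in AML replicates 1 to 3, in the same order as Mycl, and 1162 to 1297 TPM in MPN. Their part in the Mycl level was not tested.

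**Figure D2:**
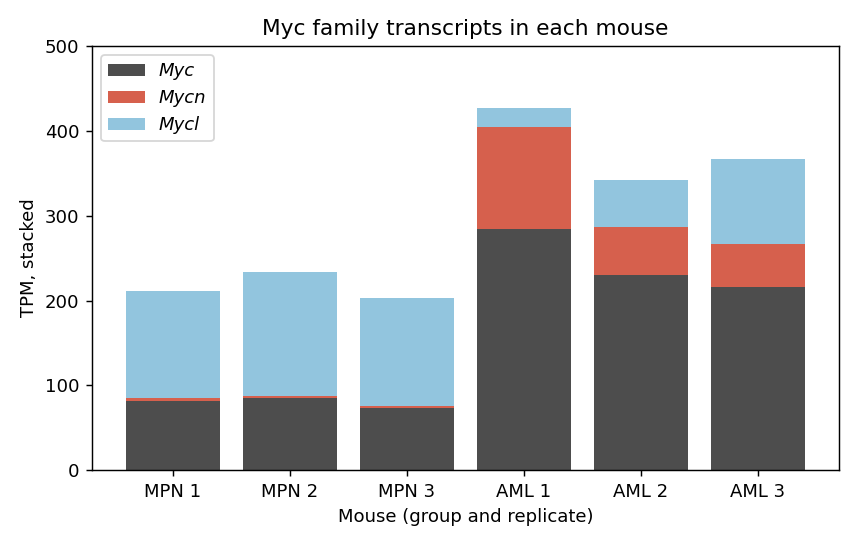
Stacked TPM of Myc, Mycn and Mycl in each mouse, on a linear axis from 0. The summed level is 203 to 233 TPM in MPN, mostly Mycl, and 342 to 427 TPM in AML, mostly Myc, and the Mycn layer is thick enough to see in the AML mice.

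The make-up of the Myc family transcripts differed more between the groups than their sum. Summed Myc, Mycn and Mycl came to 427, 342 and 366 TPM in AML and 211, 233 and 203 TPM in MPN. Mycl held 59.6% to 63.0% of that sum in the MPN mice and 5.25% to 27.3% in the AML mice. Myc held 35.8% to 38.8% in MPN and 58.8% to 67.3% in AML. Mycn held 1.22% to 1.66% in MPN, and 28.2%, 16.8% and 13.9% in AML replicates 1 to 3. Myc mRNA exceeded Mycn mRNA by 23.3 to 29.8 times in MPN and by 2.37 to 4.24 times in AML. None of the shares overlapped between the groups.

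Max (ENSMUSG00000059436, chr12:76937269-76962201, minus strand), the shared partner in this network, was the steadiest of the 9 genes. It stood at 96.4, 99.8 and 95.5 TPM in AML and 98.5, 107 and 104 TPM in MPN, with overlapping groups. The means were 97.2 and 103 TPM, and the log2(TPM + 1) difference was -0.08 ± 0.09 (SE). Summed Myc and Mycn mRNA was 4.2, 2.88 and 2.79 times Max mRNA in the AML mice and 0.867, 0.822 and 0.724 times in the MPN mice. With Mycl counted, the sum was 4.43, 3.42 and 3.84 times Max mRNA in AML and 2.14, 2.19 and 1.95 times in MPN, so it exceeded Max in all 6 mice. Ratios of transcripts are not ratios of proteins, whose levels were not measured here.

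Mxd1 (ENSMUSG00000001156, chr6:86647042-86669161, minus strand), a repressor that replaces Myc on Max during differentiation, stood at 18.3, 17.7 and 17.1 TPM in AML and 41.1, 33.0 and 38.2 TPM in MPN. The AML mice were close together and all below the lowest MPN mouse. The AML mean was 47.3% of the MPN mean, and the log2(TPM + 1) difference was -1.03 ± 0.13 (SE). In the RPKM table the AML to MPN ratio was 0.478. Of 11 tested markers of mature neutrophils, in which Mxd1 is also expressed, 9 fell (10% of all tested genes fell) and 2 did not pass, with a summed level of 7488, 21737 and 15431 TPM in AML replicates 1 to 3 and 31903 to 50702 TPM in MPN. No marker was at 0, and 3 passed without MPN replicate 1 or without MPN replicate 3. The markers' part in the fall of Mxd1 was not tested.

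Mxi1 (ENSMUSG00000025025, chr19:53310518-53375810, plus strand), a second Mxd-type repressor, stood at 25.7, 21.9 and 22.9 TPM in AML and 19.5, 15.2 and 15.9 TPM in MPN. All AML mice were above all MPN mice, with a log2(TPM + 1) difference of 0.46 ± 0.15 (SE) that did not pass over all genes. It passed in the RPKM table (0.40) and with array weights. Its exons overlap an opposite-strand gene model, Gm10197, on GRCm38, and the sources used here do not give whether the authors' counting used strand.

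Mxd3 (ENSMUSG00000021485, chr13:55325168-55329823, minus strand), an Mxd repressor found in dividing cells, was at 11.6, 14.4 and 15.1 TPM in AML and 16.2, 19.4 and 21.5 TPM in MPN. All AML mice were below all MPN mice in TPM, with a difference of -0.45 ± 0.17 (SE) that did not pass. In the RPKM table the groups overlapped, and the difference was -0.14 ± 0.13 (SE). Exons of Mxd3 overlap those of Prelid1 on the opposite strand, so the level of Mxd3 is uncertain in both tables. Mxd4 (ENSMUSG00000037235, chr5:34173883-34187720, minus strand), the most abundant repressor of the set, was at 54.9, 43.6 and 38 TPM in AML and 41.9, 36.0 and 45.7 TPM in MPN, with overlapping groups and a difference of 0.13 ± 0.17 (SE). Its sign turned with a term for sex (-0.11) and without AML replicate 1 (-0.0094). Mxd4 exons overlap the antisense gene Gm42846.

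Mnt (ENSMUSG00000000282, chr11:74830920-74845725, plus strand), the broadly expressed antagonist of Myc, was at 28.2, 25.2 and 24.8 TPM in AML and 22.2, 19.2 and 20.1 TPM in MPN. The groups did not overlap, but the difference of 0.33 ± 0.13 (SE) did not pass. Mga (ENSMUSG00000033943, chr2:119897228-119969581, plus strand), the largest protein of the network, which joins Max to a variant Polycomb complex, was at 25.7, 24.7 and 23.3 TPM in AML and 28.1, 23.6 and 18.3 TPM in MPN. The AML values lay inside the MPN range, with a difference of 0.09 ± 0.17 (SE) that was -0.07 without MPN replicate 3.

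**Figure D3:**
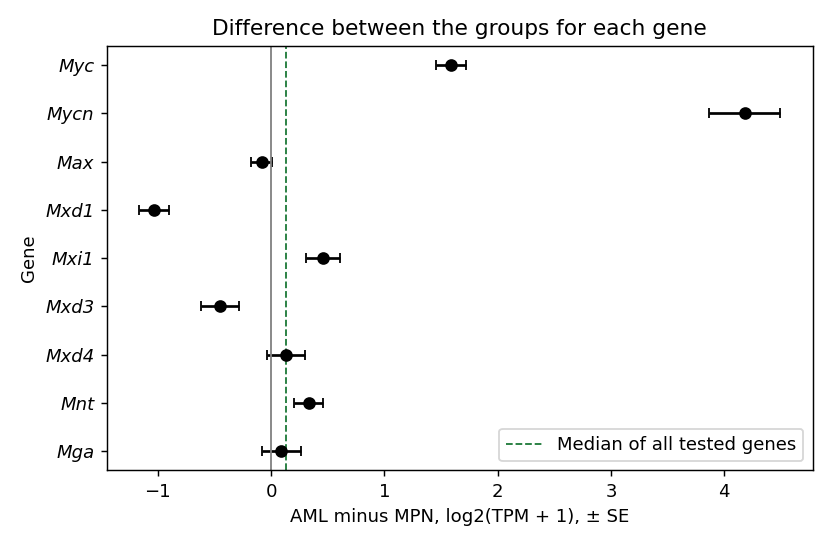
AML minus MPN on the log2(TPM + 1) scale for each gene, with its SE, and the median of all tested genes as a dashed line at 0.13. Mycn (4.18) and Myc (1.59) lie far to the right and Mxd1 (-1.03) to the left, with the other 6 between -0.45 and 0.46.

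Summed over Mxd1, Mxi1, Mxd3, Mxd4 and Mnt, the repressor mRNA was at 139, 123 and 118 TPM in AML and 141, 123 and 141 TPM in MPN, with overlapping groups. Its make-up differed: Mxd1 held 13.2% to 14.5% of the sum in AML and 26.9% to 29.2% in MPN. Summed Myc and Mycn mRNA was 2.92, 2.34 and 2.26 times this sum in the AML mice and 0.606, 0.715 and 0.533 times in the MPN mice. With Mycl counted, the activator mRNA was 3.08, 2.78 and 3.11 times the repressor sum in AML and 1.5, 1.9 and 1.44 times in MPN. Whether the activators outnumbered these repressors in MPN thus depended on Mycl, while in AML they did so with or without it.

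In order of mean TPM, the AML mice showed Myc, Max, Mycn, Mxd4, Mnt, Mga, Mxi1, Mxd1 and Mxd3. Max and Mycn, Mycn and Mxd4, Mnt and Mga, and Mga and Mxi1 were neighbours in that order whose ranges overlapped. In the MPN mice the order was Max, Myc, Mxd4, Mxd1, Mga, Mnt, Mxd3, Mxi1 and Mycn. There Mxd4 and Mxd1, Mga and Mnt, Mnt and Mxd3, and Mxd3 and Mxi1 overlapped. Max, Myc and Mycn were each clear of their neighbours in MPN.

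E-boxes of the form CACGTG, the site of Myc and Max dimers, stood in the promoters of 3 of the 8 members with an entry, and these are shown because the network's own genes carry the letters its proteins bind. They are RefSeq sequences on GRCm38.p6, 5′ to 3′, with the E-box in capitals: Max at chr12:76962239-76962278 (minus strand), Mnt at chr11:74830774-74830833 (plus strand) and Mxd4 at chr5:34187897-34187956 (minus strand).
Max: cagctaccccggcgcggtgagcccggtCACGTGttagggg
Mnt: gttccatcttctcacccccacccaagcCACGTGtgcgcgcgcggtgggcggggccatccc
Mxd4: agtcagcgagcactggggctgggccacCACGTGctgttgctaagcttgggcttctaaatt
The E-box began at positions -3, -123 and -219 from the start in that order. Of the members' 10 promoters 30.0% held CACGTG, which reads the same on both strands, against 7.15% of all promoters. CACGTG contains a CpG (C followed by G), and the members' promoters held a median of 24.5 CpG, against 7 over all promoters. The part of CpG content in the share with an E-box was not tested. None of these 3 genes passed the test between AML and MPN, and the promoters of Mycn and Mxd1 held no CACGTG.

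Genes that Myc proteins are known to induce were mostly higher in AML. Of 39 such genes, all tested, 29 rose (74.4%, against 20.1% of all tested genes), the glycolytic gene Hk2 fell (-0.49 ± 0.15 SE, limma adjusted p = 0.0404) and 9 did not pass. Their median log2 difference was 0.67, against 0.13 over all tested genes, and for 34 of the 39 every AML mouse was above every MPN mouse (34.8% of all tested genes). With a term for sex, which leaves the male AML replicate 3 to be set against the MPN mice, 4 rose and the median was 0.53.

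Apex1, a DNA repair endonuclease, was at 144, 138 and 129 TPM in AML and 61.4, 70.3 and 64.0 TPM in MPN (1.06 ± 0.10 SE, limma adjusted p = 0.000676). Ccnd2, which encodes cyclin D2, was at 122, 85.2 and 125 TPM in AML and 38.8, 38.2 and 39.7 TPM in MPN (1.47 ± 0.16, adjusted p = 0.00101). The groups were far apart for both genes. Srm, the spermidine synthase, rose from 103 ± 17.8 to 225 ± 22.7 TPM (SD, n = 3 each; limma adjusted p = 0.00237). Ldha, the lactate dehydrogenase, rose from 573 ± 35.1 to 990 ± 108 TPM (limma adjusted p = 0.00376). Of 15 ribosome biogenesis genes, 13 rose, with a median of 0.72, and Bysl and Ubtf did not pass. Of 10 genes of metabolism and transport 7 rose, and of 5 cell cycle and telomerase genes 4 rose. The size of these rises, between 0.39 and 1.47 on the log2 scale for the genes that passed, was below that of Myc itself (1.59).

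Of the 39 induced genes, 32 had promoter entries, and 9 of these held CACGTG. Among all of their 41 promoters the share was 24.4%, against 7.15% of all promoters. The E2F letters TTTNNCGC stood in 22.0% of the same 41, against 5.17% of all promoters, so an excess was not particular to CACGTG. Printed with the E-box in capitals are the 2 genes with CACGTG that are also among the 4 induced genes with the smallest p. They are Apex1 at chr14:50924898-50924957 and Ldha at chr7:46845632-46845691, both on the plus strand of GRCm38.p6.
Apex1: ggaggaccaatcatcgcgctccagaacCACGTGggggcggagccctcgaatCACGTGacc
Ldha: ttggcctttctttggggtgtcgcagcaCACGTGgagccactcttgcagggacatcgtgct
The Apex1 promoter held 3 such E-boxes and the Ldha promoter 2. Ccnd2 and Srm had no entry.

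Of 8 genes commonly described as repressed by Myc, 6 were tested, 4 rose (66.7%, against 20.1% of all tested genes) and 2 did not pass, with a median of 1.07. The median was 0.65 with a pseudocount of 5, and 0.43 without the filter, where the cell cycle inhibitor gene Cdkn2b was called lower (-0.66, limma adjusted p = 0.0287). Ndrg2, a differentiation-linked gene, was at 101, 61.6 and 64.1 TPM in AML and 4.26, 4.50 and 3.94 TPM in MPN (3.83 ± 0.21 SE, limma adjusted p = 0.000114). Cdkn1a, which encodes the cell cycle inhibitor p21, was at 53.2, 42.1 and 41.9 TPM against 12.8, 14.5 and 17.3 TPM (1.56 ± 0.16, adjusted p = 0.000862). The AML mice were above the MPN mice in both. Cdkn1c, another inhibitor, rose from 0.677 ± 0.0569 to 3.22 ± 0.982 TPM, and Ndrg1 from 31.2 ± 2.67 to 56.8 ± 7.78 TPM (SD, n = 3 each; adjusted p = 0.0046 and 0.00528). Cdkn1c was under 1 TPM in every MPN mouse and passed the filter on low values only through the AML mice, which fixed its direction. Cdkn1b and Gadd45a did not pass, and Cdkn2b and Gas1 were below the filter. Cdkn2b was lower in every AML mouse (0.4, 0.22 and 0 TPM) than in any MPN mouse (1.01, 0.62 and 1.05 TPM).

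**Figure D4:**
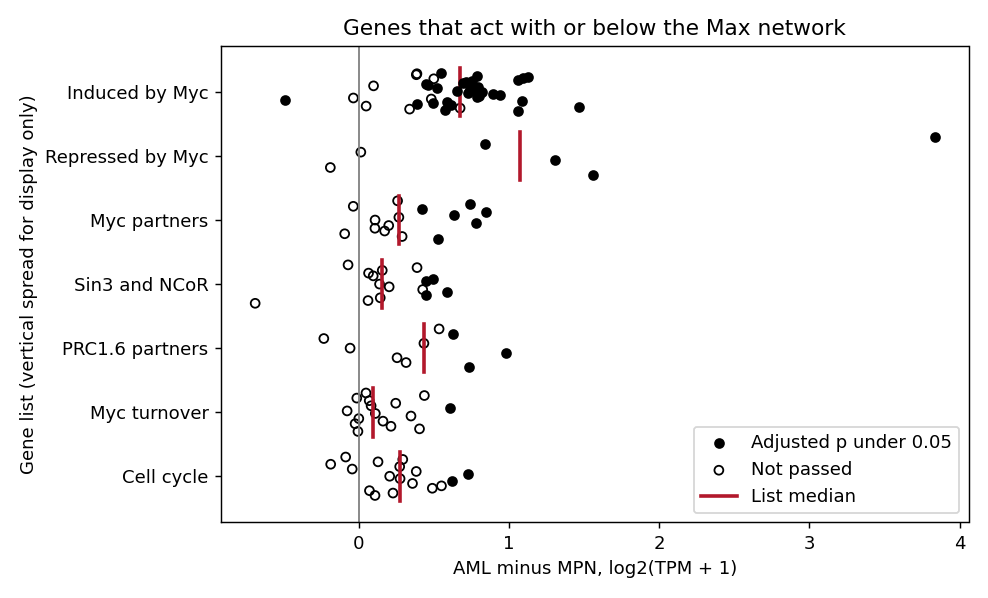
AML minus MPN on the log2(TPM + 1) scale for each tested gene of 7 lists, filled where the adjusted p is under 0.05, with the list median in red. The induced and the repressed list both lie to the right of 0, with medians of 0.67 and 1.07, and the turnover list lies around 0 with a median of 0.09.

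With a term for sex, limma called no gene in the 5 lists that follow, where 1, 4, 3, 2 and 1 had an unadjusted p under 0.05. Of 17 cell cycle genes, the helicase subunit genes Mcm3 and Mcm6 rose (11.8%, against 20.1% of all tested genes), by 0.62 and 0.72 on the log2 scale (limma adjusted p = 0.0228 and 0.0123), and the median was 0.27, or 0.10 without MPN replicate 3. The proliferation marker Mki67 was at 180, 129 and 123 TPM in AML and 185, 170 and 99.3 TPM in MPN, with overlapping groups. Mcm3 did not pass without AML replicate 2, MPN replicate 1 or MPN replicate 3 (limma adjusted p of 0.0544 to 0.0744).

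Of 15 nuclear partners of Myc, 6 rose (40.0%, against 20.1% of all tested genes) and 9 did not pass, with a median of 0.27, or 0.15 without AML replicate 1. The AAA ATPase genes Ruvbl1 and Ruvbl2 both rose, the first from 74.7 ± 10.2 to 116 ± 9.52 TPM and the second from 89.8 ± 12.2 to 162 ± 25.2 TPM (SD, n = 3 each; limma adjusted p = 0.0124 and 0.00663). The acetyltransferase gene Kat2a rose by 0.78 and the chromatin remodeller gene Smarcb1 by 0.42 (adjusted p = 0.0129 and 0.0222). Without MPN replicate 1 or 3, 3 and 2 of the 15 passed, and Smarcb1 passed in 1 of the 6 fits that leave out a mouse. Trrap, the scaffold that recruits acetyltransferases to Myc, was not among those that passed (-0.04, adjusted p = 0.863).

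Of 15 genes of the Sin3 and NCoR corepressors, which Mxd and Mnt proteins recruit, 4 rose (26.7%, against 20.1% of all tested genes) and 11 did not pass, with a median of 0.16, or 0.26 without AML replicate 3. The 4 were the deacetylase gene Hdac2, the histone-binding Rbbp4 and Rbbp7, and Ing1, by 0.45, 0.45, 0.49 and 0.59 on the log2 scale (limma adjusted p = 0.0298, 0.0231, 0.0197 and 0.0108). Without MPN replicate 1 or 2, 1 gene of this list rose, and without MPN replicate 3, 1 rose and 1 fell. A fall of 1 gene was also called without AML replicate 3, in RPKM, with array weights, and under median scaling and quantile normalization. Arid4a had the largest difference of the list, a fall that did not pass, with overlapping groups (-0.69 ± 0.22 SE, limma adjusted p = 0.0533). Sin3a and Sin3b themselves did not pass (adjusted p = 0.445 and 0.062).

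Of 9 partners of Mga and Max in the Polycomb complex PRC1.6, 3 rose (33.3%, against 20.1%) and 6 did not pass, with a median of 0.43, or 0.27 without AML replicate 1. Pcgf6, the ring finger protein particular to that complex, was at 25.7, 20.2 and 23.7 TPM in AML and 13, 11.9 and 9.11 TPM in MPN (0.98 ± 0.18 SE, limma adjusted p = 0.00697), while Mga had overlapping groups. Cbx3 and Tfdp1 rose by 0.73 and 0.63 (adjusted p = 0.0128 and 0.0247). The call of Tfdp1 ended without AML replicate 1 or 2 and without MPN replicate 2 or 3 (adjusted p of 0.0515 to 0.0755). Yaf2 did not pass (adjusted p = 0.0581).

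Of 16 genes that act on the stability of Myc proteins, only Set, which encodes an inhibitor of the phosphatase PP2A, rose (6.25%, against 20.1% of all tested genes), from 271 ± 25.1 to 413 ± 26.5 TPM (SD, n = 3 each; limma adjusted p = 0.00743), and the median was 0.09, or 0.21 without AML replicate 3 and 0.0035 without MPN replicate 3. Fbxw7, the ubiquitin ligase subunit that marks phosphorylated Myc and Mycn for degradation, was at 15.1, 10.8 and 10.8 TPM in AML and 12.7, 14.1 and 10.5 TPM in MPN (adjusted p = 0.928). Aurka, a kinase that stabilises Mycn protein, was at 47.3, 45.3 and 37.7 TPM in AML and 46.2, 43.5 and 40.8 TPM in MPN (adjusted p = 0.973). The groups overlapped for both.

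The tested gene whose profile was nearest to that of Myc was 1700001O22Rik, by Euclidean distance of log2(TPM + 1) over the 6 mice after centring each gene on its MPN mean (0.214, against a median of 2.57 over all tested genes). Ydjc (44.7, 41.9 and 36.9 TPM in AML, 13.3, 12.9 and 13 TPM in MPN), Frmd6, the mitochondrial deacetylase gene Sirt3 and 6030419C18Rik followed, at 0.220 to 0.245. For 1700001O22Rik (0.227 TPM in MPN and 2.71 TPM in AML on average) and 6030419C18Rik (0.0367 and 2.33 TPM) this nearness rested on the pseudocount of 1: with 0.1 their log2 differences were 3.09 and 4.13, against 1.6 for Myc. Nearest to Mycn were Ecm1, at 129, 39.4 and 58.2 TPM in AML and 3.06, 3.16 and 1.72 TPM in MPN, then Spns2, Tox, Msrb3 and Gm5111, at distances of 0.668 to 0.747 against a median of 7.08. These distances also depend on the pseudocount: with 0.1 the difference of Msrb3 was 5.16, against 4.54 for Mycn. Those of Ecm1, Tox and Gm5111 were then 4.58 to 4.78, and that of Spns2 was below Mycn. Msrb3, 1700001O22Rik and 6030419C18Rik were under 1 TPM in every MPN mouse. They passed the filter on low values only through the AML mice, which fixed their direction. Ecm1 encodes an extracellular matrix protein, Spns2 a transporter of sphingosine-1-phosphate and Tox a nuclear HMG-box protein. In Ecm1, Spns2, Tox and Gm5111, as in Mycn, AML replicate 1 was well above the other 2 AML mice. The choice of genes by distance to Mycn over the same mice selects for this likeness.

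Markers of other cell types that c-Kit+ spleen preparations can hold moved with these comparisons. Of 10 monocyte and macrophage markers 9 fell (10% of all tested genes fell; 6 and 5 without MPN replicate 1 and 3), with a summed level of 115 to 287 TPM in AML and 688 to 725 TPM in MPN, and C1qa, C1qb and C1qc were at 0 in at least 1 AML library. Of 8 T and NK cell markers all 8 fell (3.48 to 7.46 against 179 to 295 TPM), and Cd3g was at 0 in an AML library. Of 5 tested B cell markers 4 fell (27.2 to 36.6 against 76.6 to 101 TPM, with Pax5 at 0 in an AML library). Of 9 erythroid markers only Klf1 fell (7 passed without AML replicate 1, 2 without AML replicate 3 and 0 without any other mouse, where 2 to 5 had an unadjusted limma p under 0.05), and their sum was 606, 240 and 108 TPM in AML replicates 1 to 3 and 413 to 922 TPM in MPN. Their part in the levels of the Max network genes was not tested.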

How the data were processed

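RNA-seq had been done on c-Kit+ spleen cells of 3 AML and 3 MPN mice, 1 stranded poly-A library each, per the labels' protocols. TPM values per gene symbol were deposited by the authors as RSEM gene-level output, per the file headers. RPKM values per Ensembl identifier were deposited by the authors. Unread genes there share a floor, and of 12216 low values 99.7% fell no more than 0.05 from whole multiples of each library's step. The tools TopHat2, RSEM and Bowtie2 and the builds mm9 and mm10 are named, without their role, per the submitters' processing notes. Coordinates come from GENCODE M21 and RefSeq on GRCm38 and serve for location only.

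The 12223 genes that reached 1 TPM in 3 or more of the 6 libraries were compared on log2(TPM + 1) in R 4.3.3 by limma 3.58.1, with its variance prior following mean expression and without covariates, two-sided, with Benjamini-Hochberg adjustment and a threshold of 0.05. The fit was tested on simulated data. Replicates were numbered in accession order. The labels name separate mice.

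The members and lists were chosen with earlier results of these data known. Named were the 9 members, the 4 genes of each list with the smallest p, all genes of the basic helix-loop-helix-zipper, Mondo target and neighbour lists, and the 5 profiles nearest to Myc and Mycn. Other genes, such as Hk2, Mki67, Fbxw7 and Trrap, were named after their values were seen. Of the stem cell, neutrophil, dendritic, macrophage, lymphocyte and erythroid markers, only those a result turns on are given singly. The antisense gene Mycnos and the neutrophil marker Ly6g matched no row and are not analysed here. The sex of each mouse was read from Xist and Ddx3y. Alternatives were pseudocounts of 0.1 and 5, the RPKM table in place of TPM, quantile normalization, median scaling, array weights, a flat variance prior, a term for sex, a filter at 5 TPM or none, and leaving out each mouse. Array weights stopped before full convergence.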

Additional observations from a re-analysis of the deposited data

How the results depend on the processing

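Over 16 alternatives the log2 differences of Myc, Mycn and Mxd1 ranged from 1.42 to 1.67, 3.25 to 4.54 and -1.12 to -0.90, as a description, since these genes were chosen with the difference known. Array weights called 6 members in place of 3, adding Mxi1, Mnt and Mxd3. These weights were 8.59 for MPN replicate 2 and 0.247 to 1.38 for the other libraries, so the MPN side rested mostly on that mouse. Differences that moved by more than the spread between mice were those of Mycn with a pseudocount of 5 (3.25) and in RPKM (3.35), Mxd1 with a pseudocount of 5 (-0.90), Max under median scaling (-0.17) and quantile normalization (-0.16), Mxd3 in RPKM (-0.14) and Mxd4 with a term for sex (-0.11). In RPKM the MPN means of the Mycn share and of the ratio to Max were 1.01% and 0.928, in place of 1.38% and 0.804. The AML means were 13.9% and 3.63, in place of 19.6% and 3.29. No paired analysis was possible because the labels name separate mice and pair no AML mouse with an MPN mouse.

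With a term for sex, which rests on the male AML mouse, limma called 1208 genes in place of 3678, 4 of the induced list, and 0 genes in place of 6 Myc partners, 4 corepressors, 3 PRC1.6 partners, 1 turnover gene, 2 cell cycle genes and 2 basic helix-loop-helix-zipper genes, where 4, 3, 2, 1, 1 and 2 had an unadjusted p under 0.05. Higher calls made up 55.7% in place of 66.7%. It also called 2 neutrophil, 5 T and NK cell and 8 erythroid markers. Array weights called 5 PRC1.6 partners, 2 turnover genes, 5 basic helix-loop-helix-zipper genes and 7 erythroid markers. A further move was to 5 neutrophil markers without the filter, and to 3 T and NK cell markers with a filter at 5 TPM and in RPKM. Erythroid calls were 0 with a pseudocount of 0.1, no filter or no trend (5, 4 and 5 at an unadjusted p under 0.05), 3 with a pseudocount of 5, and 2 under median scaling, quantile normalization and RPKM.

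Leaving out each mouse in turn gave 2009 to 3705 called genes, 20 to 28 of the induced list, 2 to 5 Myc partners, 1 to 5 corepressors, 1 to 2 turnover genes, 1 to 4 cell cycle genes, 3 to 9 neutrophil, 5 to 9 macrophage and 0 to 7 erythroid markers. Among 80 named list genes and nearest profiles, 0 of 1265 values reversed a call, 54 ended it and 27 newly passed. Medians of the Myc partner, corepressor, PRC1.6, turnover and cell cycle lists ranged from 0.14 to 0.33, 0.06 to 0.26, 0.20 to 0.55, -0.001 to 0.21 and 0.08 to 0.34. The cause was not tested for any of these moves. TPM keeps no depth, so no counting interval can be given, and 3 mice a group limit the precision.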

Other observations

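Other basic helix-loop-helix-zipper factors were measured in the same fit. The list held Mycl, which pairs with Max, and factors that bind E-boxes without Max. Of 9 tested, Tfap4 rose and Tfe3 fell, and 7, Mycl among them, did not pass. Tfap4, known as a Myc target that carries on its proliferative programme, was at 40.2, 35.4 and 29.0 TPM in AML and 19.3, 16.4 and 15.8 TPM in MPN (log2 difference 0.98 ± 0.16 SE, limma adjusted p = 0.00499). Tfe3, a lysosomal and autophagy regulator, was at 23.5, 21.3 and 27.1 TPM in AML and 42.1, 40.6 and 42.6 TPM in MPN (-0.78 ± 0.13, adjusted p = 0.00487). Its relative Tfeb was lower in every AML mouse but did not pass (adjusted p = 0.0536), nor did Usf1 (adjusted p = 0.0647), Usf2 (0.537) or Mitf (0.766). Once sex was a term, Tfap4 and Tfe3 did not pass either (adjusted p = 0.0783 and 0.0821).

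The Mlx arm is a parallel network that senses glucose and other nutrients. Mlx averaged 47.0 ± 6.50 TPM in the AML mice and 45.5 ± 2.74 TPM in the MPN mice, and Mlxip, which encodes MondoA, 50.9 ± 13.7 and 41.6 ± 6.34 TPM (SD, n = 3 each; limma adjusted p = 0.840 and 0.369). Neither passed. Mlxipl was at most 0.08 TPM in any mouse. Of the MondoA target genes, Arrdc4 fell from 44.2 ± 7.75 to 20.7 ± 4.84 TPM (adjusted p = 0.00907), but not once sex was a term (adjusted p = 0.127). Txnip did not pass, with overlapping groups (adjusted p = 0.547).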
